A study of Mus musculus with 8 samples.

Results

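Of the 25124 gene symbols in the deposited table, 10 make up the set described here. They code for the proteins of lung surfactant or were listed under the organelle that stores it, the lamellar body. That list also holds a phosphate transporter of the cell surface (Slc34a2) and an enzyme of lipid remodelling (Lpcat1). The 10 genes were taken by name, with earlier results of these data known. They are the surfactant proteins Sftpa1, Sftpb, Sftpc and Sftpd, and the lamellar body genes Abca3, Lamp3, Slc34a2, Lpcat1, Napsa and Ctsh. Their counts set against shares of all genes are thus a description. All 10 passed the filter on low values (an average of 10 or more normalized counts across libraries), as did 7512 genes in all. RNA-seq was made from cells labelled airway epithelial cells, sorted by flow cytometry from lungs of C57BL/6 mice. The 4 groups of 2 libraries were STAT3-WT given phosphate-buffered saline (WT PBS), STAT3-WT given house dust mite (WT HDM), STAT3-cKO given saline (cKO PBS) and STAT3-cKO given house dust mite (cKO HDM). House dust mite is an allergen. STAT3 is a transcription factor that cytokines activate, and cKO stands for its conditional knockout. The sources used here give no driver of the knockout, no cells in which it acts, no dosing schedule, and no age, sex or number of mice behind each library.

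Surfactant is the mixture of phospholipid and protein that lowers surface tension in the alveoli. Alveolar type 2 cells make it, pack it into lysosome-related organelles called lamellar bodies, and secrete it by fusing these with the cell surface. The hydrophobic proteins SP-B and SP-C, from Sftpb and Sftpc, work within the lipid film, while the collectins SP-A and SP-D, from Sftpa1 and Sftpd, also bind microbes and allergens. Several of these genes are not restricted to type 2 cells: club cells of the airway also transcribe Sftpb and Sftpd, mature dendritic cells Lamp3, and many cells Ctsh.

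The libraries were shallow, with 232556 to 593200 recovered reads, and the reads behind single values of the 10 genes ran from 31 (Lamp3 in cKO PBS replicate 1) to 4081 (Sftpa1 in WT HDM replicate 1). Across tested genes, which are not independent, the replicate pairs had r = 0.77 (WT PBS and cKO HDM), 0.68 (WT HDM) and 0.56 (cKO PBS). The labels do not state whether replicates came from separate mice, so p-values cover only how far these particular libraries spread, possibly for technical reasons. Stat3, the targeted gene, held 134 and 157 normalized counts with HDM in WT and 76.9 and 92.2 in the libraries labelled cKO. With saline the values were 75.8 and 40.9 in WT and 56.9 and 96.5 in the libraries labelled cKO, which overlap. Its log2 difference between genotypes was -0.78 ± 0.39 under HDM (limma adjusted p = 0.549) and 0.41 ± 0.39 under saline (limma adjusted p = 0.845), so every direction between genotypes below rests on the labels.

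Start-site sequences are shown for Lpcat1, Lamp3 and Slc34a2, which had the lowest estimates of the set in cKO against WT under HDM. Those of the surfactant protein genes Sftpb and Sftpa1 are shown as well. No likeness between the sequences was tested. RefSeq (GRCm38.p6) promoter entries were found for 6 of the 10 genes: Sftpa1, Sftpb, Abca3, Lamp3, Slc34a2 and Lpcat1. Sftpc, Sftpd, Napsa and Ctsh had no entry. Each line gives the 200 bases before the annotated start, 5′ to 3′ in the direction of the gene, with motif matches in capitals. For Slc34a2 this start and the bases shown lie inside the annotated gene (53038081 to 53071664), which begins upstream of them. The lines of Lpcat1, Lamp3 and Sftpa1 also end inside the annotated genes, which begin at 73467197, 19706375 (minus strand) and 41131782. The window of Abca3, which is not shown, ends inside its gene as well (start at 24351950).
Slc34a2 (chr5:53049153-53049352, plus strand): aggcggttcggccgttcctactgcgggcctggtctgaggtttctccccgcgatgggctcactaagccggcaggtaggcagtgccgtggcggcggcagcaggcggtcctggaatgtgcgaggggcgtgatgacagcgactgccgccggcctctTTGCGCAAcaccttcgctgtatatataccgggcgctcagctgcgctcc
Lamp3 (chr16:19706366-19706565, minus strand): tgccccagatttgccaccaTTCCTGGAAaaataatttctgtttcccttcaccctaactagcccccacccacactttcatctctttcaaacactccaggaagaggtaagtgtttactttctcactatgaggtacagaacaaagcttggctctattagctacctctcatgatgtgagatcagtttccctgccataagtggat
Lpcat1 (chr13:73467031-73467230, plus strand): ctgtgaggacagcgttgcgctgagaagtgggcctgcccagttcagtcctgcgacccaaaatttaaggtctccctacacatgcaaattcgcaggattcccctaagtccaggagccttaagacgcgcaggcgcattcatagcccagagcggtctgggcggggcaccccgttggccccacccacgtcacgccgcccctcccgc
Sftpb (chr6:72304410-72304609, plus strand): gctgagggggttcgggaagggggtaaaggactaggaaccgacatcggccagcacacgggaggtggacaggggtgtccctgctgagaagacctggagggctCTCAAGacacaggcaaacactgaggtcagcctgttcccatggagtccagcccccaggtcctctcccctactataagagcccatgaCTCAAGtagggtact
Sftpa1 (chr14:41131588-41131787, plus strand): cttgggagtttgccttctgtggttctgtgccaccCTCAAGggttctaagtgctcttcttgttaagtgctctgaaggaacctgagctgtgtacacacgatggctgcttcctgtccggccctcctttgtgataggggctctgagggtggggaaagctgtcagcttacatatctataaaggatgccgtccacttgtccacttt

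Both strands of the 250 bases before the start were searched for the letter patterns named below, and none of the matches found overlapped another. The STAT pattern with a 3-base gap, TTCNNNGAA, matched once, in Lamp3 at -181 to -173, and 7.02% of 32851 promoter entries hold it. The STAT pattern with a 4-base gap between the same ends matched none of the 6 promoters and 5.85% of all. The C/EBP pattern TTGCNNAA matched in Slc34a2 at -48 to -41 (9.56% of all), and the NKX2-1 pattern CTCAAG matched in Sftpb at -100 to -95 and -15 to -10 and in Sftpa1 at -166 to -161 (13.3% of all). The SREBP pattern TCACNCCAC matched in Abca3 at -225 to -217, upstream of a window of the length shown, and 1.05% of all entries hold it. Lpcat1 matched none of the patterns. These matches describe letters in the reference and are not evidence of binding.

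Several transcripts of the set were among the most abundant in cells sorted as airway epithelium. By mean normalized count over the 8 libraries, Sftpa1 ranked 4, Sftpc 9, Slc34a2 11 and Sftpb 16 of all symbols. This mean includes WT HDM, where each of these genes was highest. Slc34a2, for example, had a mean of 2235 there and of 477 to 669 in the other groups. Per kilobase of the longest coding transcript, the order in WT PBS was led by Sftpc, at 966 and 1628 normalized counts per kilobase in the replicates. Sftpb (514 and 522) and Sftpa1 (433 and 578) followed without separating from each other. Sftpd came next at 208 and 235, above Slc34a2 at 120 and 200, and then Ctsh at 110 and 79.9. Abca3 (50.7 and 70.6), Napsa (32.9 and 61.8) and Lamp3 (29.9 and 54.5) overlapped one another. Lpcat1 (39.8 and 38.6) lay within the range of Napsa and Lamp3 and below Abca3. By group means on this scale, the 4 surfactant proteins stood above the 6 lamellar body genes in each of the 4 groups.

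The first comparison was HDM against PBS in WT mice. Of the 10 genes 3 rose with HDM, namely the collectins Sftpa1 and Sftpd and the phosphate transporter Slc34a2 (limma adjusted p under 0.05). Among all genes tested, 0.506% rose. On the recovered reads edgeR called 4 of the 10 (0.745% of all genes higher) and DESeq2 8 (1.43% of its genes higher). The log2 fold change was above 0 for all 10, against 48.5% of all genes, and the median was 1.28 against -0.03. In 9 of the 10 both WT HDM libraries lay above both WT PBS libraries, the exception being Ctsh, and 21.2% of all genes showed such a separation. In the same 9 genes the WT HDM libraries were also the highest of all 8 libraries, as the plot of values by library shows. The share of all genes in that order was not counted, so it is given as a description only. These are bulk RNA values, in which more type 2 cells in a sort and more RNA per type 2 cell cannot be told apart.

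**Figure D1:**
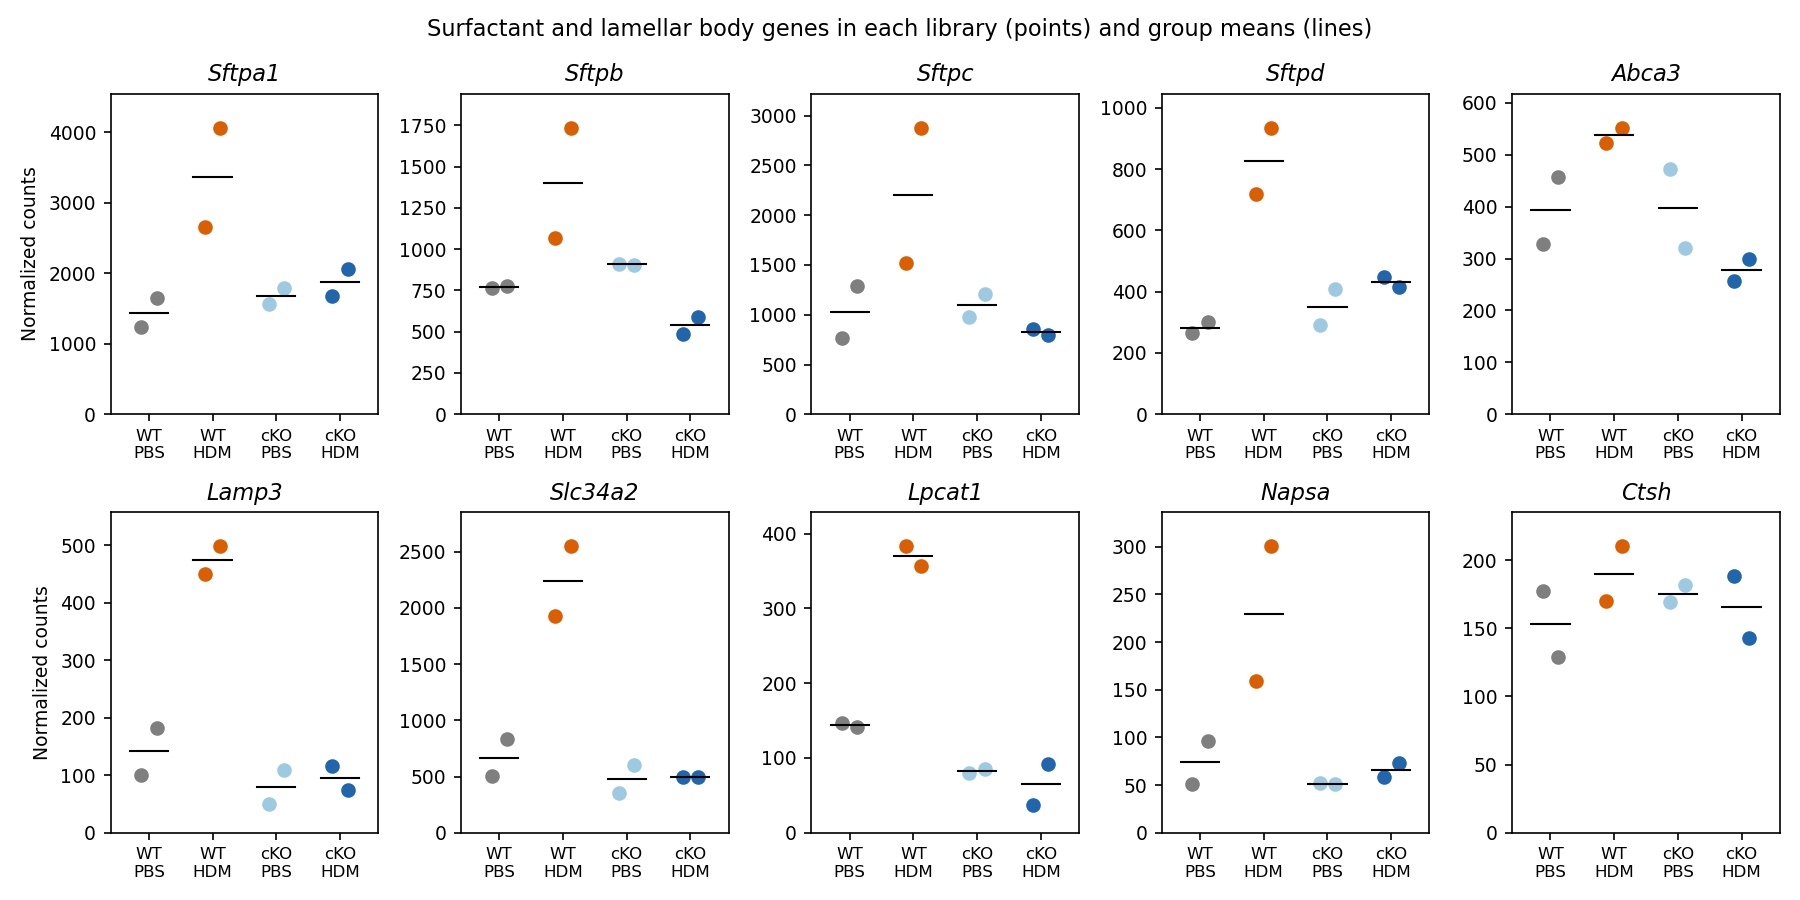
Normalized counts of the 10 genes (vertical axes, each starting at 0) in the 4 groups, with 1 point per library and a line at the group mean. The 2 WT HDM points are the highest of the 8 in every panel but that of Ctsh, whose values lie between 129 and 210 in all groups.

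Sftpa1, the gene of the collectin SP-A, lies on chromosome 14 (41131782 to 41136452, plus strand, mm10). It held 1237 and 1650 normalized counts in WT PBS and 2661 and 4062 in WT HDM. The groups did not overlap, and the log2 rise was 1.20 ± 0.22 (limma standard error, adjusted p = 0.0224). Sftpd, the gene of the collectin SP-D, lies in the same stretch of chromosome 14 on the other strand (41172214 to 41185149). Its values were 266 and 300 in WT PBS and 718 and 935 in WT HDM, both libraries of each group close to each other relative to the gap. It rose by 1.53 ± 0.24 (limma adjusted p = 0.00515), a 2.92-fold difference of means.

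The hydrophobic surfactant proteins did not pass. Sftpb (chromosome 6, 72304610 to 72314371), whose product is needed to form lamellar bodies, stood at 766 and 778 in WT PBS and at 1069 and 1734 in WT HDM. The HDM libraries were both above the PBS libraries but differed from each other by more than the PBS pair did. Its log2 fold change was 0.82 ± 0.23 (limma adjusted p = 0.17). Sftpc (chromosome 14, 70520949 to 70524081) held 765 and 1289 in WT PBS and 1519 and 2878 in WT HDM, which gave 1.07 ± 0.28 (limma adjusted p = 0.143).

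Among the lamellar body genes Slc34a2, a sodium-phosphate cotransporter of the type 2 cell surface, showed the firmest rise. It lies on chromosome 5 (53038081 to 53071664) and held 502 and 836 normalized counts in WT PBS against 1924 and 2546 in WT HDM. The log2 rise was 1.77 ± 0.28 (limma adjusted p = 0.00515). Lamp3, a membrane protein of the lamellar body (chromosome 16, 19653378 to 19706375), went from 100 and 183 to 450 and 498. Its log2 fold change of 1.80 ± 0.39 was as large but missed the threshold (limma adjusted p = 0.0541), while edgeR on the recovered reads called it (adjusted p = 0.038).

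Lpcat1, which remodels lysophosphatidylcholine into the saturated phosphatidylcholine of surfactant, held 146 and 142 in WT PBS and 383 and 357 in WT HDM. The replicates agreed closely in both groups, and the log2 fold change was 1.35 ± 0.36 (limma adjusted p = 0.149). Napsa, an aspartic protease that processes SP-B, held 51.3 and 96.4 against 159 and 300, with 1.62 ± 0.40 (limma adjusted p = 0.105). Abca3, the transporter that moves phospholipid into the lamellar body, was at 328 and 457 in WT PBS and 523 and 552 in WT HDM. Its log2 fold change was only 0.47 ± 0.25, with a 95% interval of -0.07 to 1.01. Ctsh, a cathepsin that processes SP-B and SP-C, held 178 and 129 against 170 and 210, and these overlapped (0.32 ± 0.29, 95% interval -0.29 to 0.93).

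Which genes passed depended on single libraries. None of the 10 passed without WT HDM replicate 2 or WT PBS replicate 1, Slc34a2 alone passed without WT PBS replicate 2, and 5 passed without WT HDM replicate 1 or either cKO PBS library. Without either cKO HDM library Sftpa1 was lost (adjusted p = 0.0512 and 0.0548) and 2 genes passed. Without WT HDM replicate 2 the log2 fold changes were 0.47 for Sftpb, 0.61 for Sftpc and 0.17 for Ctsh. Without WT PBS replicate 1 they were 0.70 for Sftpc, 0.23 for Abca3 and 0.55 for Ctsh, and without WT PBS replicate 2 they were 0.71 for Abca3 and 0.09 for Ctsh. In a limma fit without a mean-variance trend no gene of the set passed.

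In the libraries labelled cKO, no gene of the set passed in HDM against PBS. The count was 0 of 10 by limma, by edgeR and by DESeq2, with 1 gene at an unadjusted limma p under 0.05, as 7.77% of all genes were. After adjustment 0.0532% of all genes passed with limma, 0.0532% with edgeR and 0.281% with DESeq2, in either direction. Log2 fold changes were above 0 for 5 of the 10, as for 55.5% of all genes, with a median of 0.01 against 0.10 over all genes. That gene was Sftpb, which held 909 and 907 in cKO PBS and 486 and 589 in cKO HDM, a log2 fold change of -0.76 ± 0.23 (limma adjusted p = 0.42). Sftpc (981 and 1209 against 856 and 801) and Abca3 (473 and 321 against 256 and 300) also had both HDM libraries below both PBS libraries. Sftpd (291 and 410 against 447 and 417) and Napsa (52.1 and 50.8 against 58.8 and 73.1) had both above. Such separations, 2 upward and 3 downward, occurred in 19% and 16.7% of all genes. Slc34a2, at 356 and 598 against 496 and 499, had a 95% interval of -0.48 to 0.70.

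Under HDM, 5 of the 10 genes fell in the libraries labelled cKO against WT: Slc34a2, Lpcat1, Lamp3, Sftpb and Sftpc (limma adjusted p under 0.05). Among all genes tested 0.519% fell. The recovered reads gave 5 of the 10 with edgeR (0.652% of all genes lower) and 9 with DESeq2 (1.37% of its genes lower). The log2 difference was below 0 for all 10, against 49.2% of all genes. Both cKO HDM libraries lay below both WT HDM libraries in 9 of the 10, again except Ctsh, as in 21.9% of all genes. The median log2 fold change was -1.34 over the 10, -1.13 over the surfactant proteins, -1.94 over the lamellar body genes and 0.02 over all genes. This comparison shares the WT HDM libraries with the first, so the sets of values are not independent.

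Lpcat1 had the lowest estimate. It held 37.7 and 91.4 normalized counts in cKO HDM against 383 and 357 in WT HDM, a log2 difference of -2.63 ± 0.36 (limma adjusted p = 0.00284), or a 5.73-fold lower mean. Lamp3 stood at 115 and 73.9 against 450 and 498 (-2.34 ± 0.39, limma adjusted p = 0.0144). Slc34a2 stood at 496 and 499 against 1924 and 2546, and its cKO HDM replicates were nearly equal (-2.15 ± 0.28, limma adjusted p = 0.00207). Napsa, at 58.8 and 73.1 against 159 and 300, was at -1.72 ± 0.40 and missed the threshold (limma adjusted p = 0.0813). Abca3, at 256 and 300 against 523 and 552, was at -0.95 ± 0.25 (limma adjusted p = 0.139). The cathepsin Ctsh, at 189 and 143 against 170 and 210, was at -0.20 ± 0.29.

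Of the surfactant proteins, Sftpb and Sftpc fell, and the collectins did not pass. Sftpb held 486 and 589 in cKO HDM against 1069 and 1734 in WT HDM (-1.35 ± 0.23, limma adjusted p = 0.0145). Sftpc held 856 and 801 against 1519 and 2878 (-1.34 ± 0.28, limma adjusted p = 0.0473). Sftpa1 at 1683 and 2061 was below its WT HDM values of 2661 and 4062 by a log2 difference of -0.82 ± 0.22 (limma adjusted p = 0.141). Sftpd at 447 and 417 was below 718 and 935 by -0.92 ± 0.24 (limma adjusted p = 0.13). The collectins thus passed in the first comparison and the hydrophobic proteins in this one, and no test was made of a difference between these pairs of genes.

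**Figure D2:**
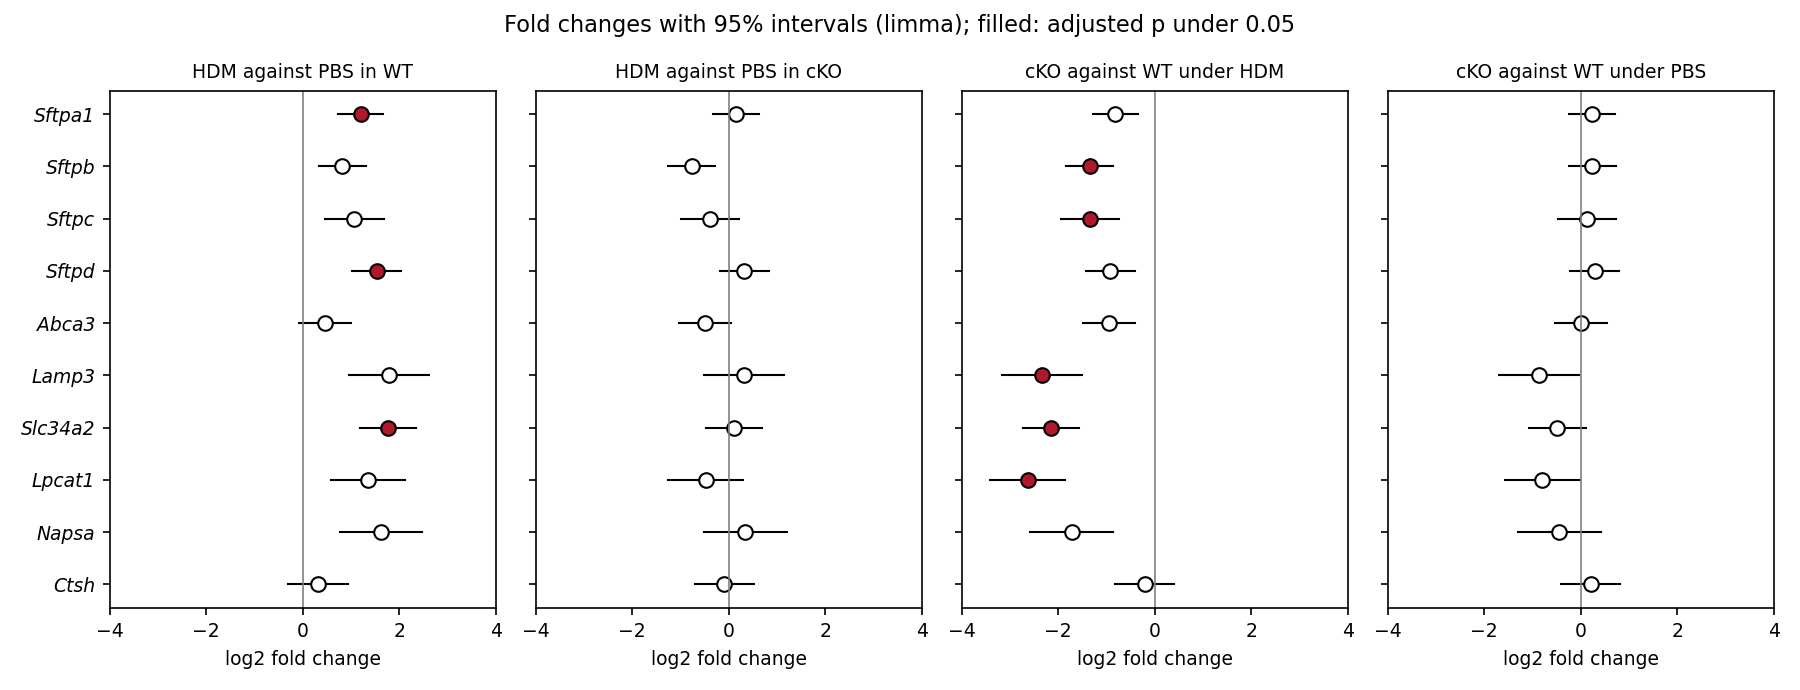
Log2 fold changes on the log2(value + 1) scale (horizontal axes) with 95% intervals from limma for the 10 genes in 4 comparisons; filled circles passed at an adjusted p under 0.05. All 10 estimates lie above 0 in the first panel and below 0 in the third, while both sides of 0 are taken in the other panels.

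None of the 10 genes passed without WT HDM replicate 2, and Lpcat1 and Slc34a2 alone passed without either cKO HDM library. Their estimates without WT HDM replicate 2 were -2.68 and -1.95, close to those from all libraries, while that of Sftpc was -0.87 and that of Sftpa1 -0.51. The estimate for Ctsh lay between -0.40 and -0.0035 without single libraries of these groups. Lamp3 missed the threshold without WT HDM replicate 1 (adjusted p = 0.0548), and Sftpc without either WT PBS library (0.0745 and 0.0707). Without either cKO PBS library 7 passed, and no gene of the set passed without the trend.

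Under saline, the count between genotypes was 0 of 10 by limma, by edgeR and by DESeq2, with 2 genes at an unadjusted limma p under 0.05, as 6.96% of all genes were. After adjustment 0% of all genes passed with limma or edgeR and 0.00671% with DESeq2. The genes with an unadjusted p under 0.05 were Lamp3, at 50.4 and 109 normalized counts in cKO PBS against 100 and 183 in WT PBS (-0.86 ± 0.39, limma adjusted p = 0.704), and Lpcat1, at 79.7 and 85.1 against 146 and 142 (-0.80 ± 0.36, limma adjusted p = 0.704). Lpcat1 had both cKO libraries below both WT libraries, as 19.1% of all genes did, and Sftpb had both above (909 and 907 against 766 and 778), as 15.7% did. The estimate for Lamp3 was -0.31 without cKO PBS replicate 1, -1.41 without cKO PBS replicate 2, -1.29 without WT PBS replicate 1 and -0.43 without WT PBS replicate 2. All 4 surfactant proteins had estimates from 0.13 (Sftpc) to 0.29 (Sftpd), with intervals from -0.47 to 0.80 that include 0. Under quantile normalization Sftpa1 was at -0.10 and Sftpc at -0.055, so no direction is given for the surfactant proteins here.

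A genotype-by-treatment interaction term tested for a difference in the HDM response. It was below 0 for all 10 genes, against 44% of all genes, with a median of -1.37 against 0.16. No gene of the set passed with limma or edgeR, and 9 of the 10 (all but Ctsh) had an unadjusted limma p under 0.05, against 7.77% of all genes. After adjustment 0.0266% of all genes were lower with limma and 0.0932% with edgeR. With DESeq2 5 of the 10 passed (Lpcat1, Sftpb, Sftpc, Sftpd and Slc34a2), as did 0.537% of its genes. Sftpb had the smallest p, with -1.58 ± 0.32 (limma adjusted p = 0.155, 95% interval -2.27 to -0.89). Slc34a2 followed with -1.66 ± 0.39 (limma adjusted p = 0.33). For Ctsh the term was -0.41 ± 0.41, and it lay between -0.64 and -0.18 without single libraries.

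The make-up of the set's reads varied between libraries. Slc34a2 took 20.1% and 18.1% of the set's reads in WT HDM, 11.6% and 14.3% in WT PBS, 7.23% and 10.6% in cKO PBS, and 10.7% and 9.89% in cKO HDM. Sftpa1 took 36.4% and 40.8% in cKO HDM, against 27.8% to 31.8% in the other 6 libraries. A ratio, chosen after its values were seen, sets the reads of the 6 lamellar body genes over those of the 4 surfactant proteins. It was 0.430 and 0.459 in WT PBS, 0.605 and 0.465 in WT HDM, 0.315 and 0.311 in cKO PBS, and 0.332 and 0.305 in cKO HDM. All 4 WT libraries were above all 4 libraries labelled cKO, with and without allergen. Without Slc34a2 in the numerator the WT libraries ran from 0.1995 to 0.282 and the cKO libraries from 0.173 to 0.220, which overlap. Slc34a2 relative to Sftpc was 1.27 and 0.885 in WT HDM and 0.363 to 0.657 in the other 6 libraries. Ctsh relative to Sftpc ran from 0.0730 in WT HDM replicate 2 to 0.232 in WT PBS replicate 1.

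**Figure D3:**
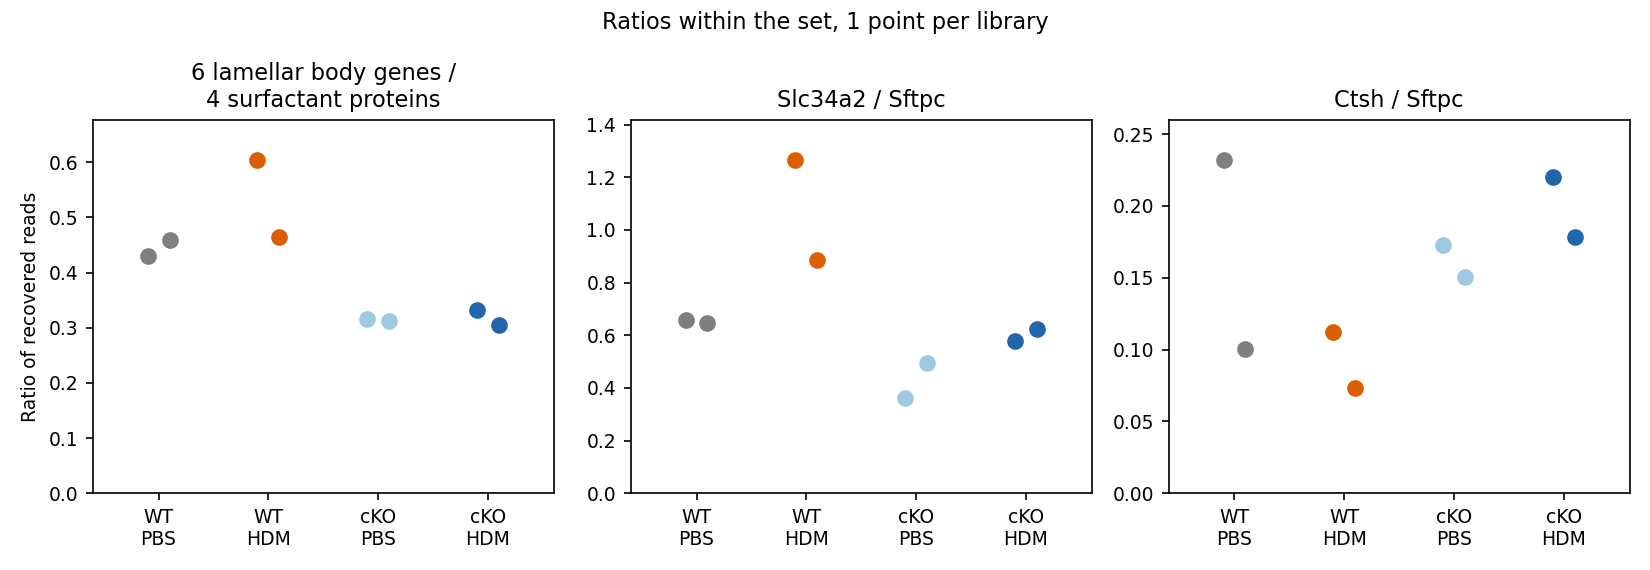
Ratios of recovered reads within the set (vertical axes, starting at 0), 1 point per library in each of the 4 groups: lamellar body genes over surfactant proteins, Slc34a2 over Sftpc, and Ctsh over Sftpc. In the first panel the 4 WT points (0.430 to 0.605) lie above the 4 cKO points (0.305 to 0.332). That ratio was chosen after its values were seen. Without Slc34a2 in it, the WT (0.1995 to 0.282) and cKO (0.173 to 0.220) libraries overlap.

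Across the 8 libraries, each gene's log2 values were set against the mean of the other genes of the set, as a description. Slc34a2 (r = 0.98), Napsa (0.95), Sftpc (0.92) and Lamp3 (0.91) followed the others most closely, and Ctsh least (0.32). Of 1756 further named genes averaging 50 or more normalized counts, the 8 whose pattern was most like the set's were Cxcl15 (r = 0.99), Ager (0.98), Acly (0.98), Lyz2 (0.97), Atp11a (0.96), Aqp1 (0.96), Nisch (0.96) and Lgi3 (0.96). Cxcl15, a lung chemokine, Lyz2, a lysozyme, and Lgi3 were in the type 2 cell lists used here, and Ager was in the type 1 list. Aqp1, a water channel, is abundant in capillary endothelium. Macrophage and dendritic cell markers were also highest in WT HDM, where they summed to 92.0 and 151 normalized counts. The part of such cells in the Lyz2 values was not tested. The points share libraries and the 2 WT HDM libraries set them apart from the rest. Cxcl15 held group means of 437 in WT PBS, 1317 in WT HDM, 464 in cKO PBS and 378 in cKO HDM.

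The rest of the surfactant pathway was read from lists chosen by role, with earlier results of these data known. List counts set against shares of all genes are thus a description. Of 11 tested genes that build or activate fatty acids, the chains of surfactant phospholipid, or control their synthesis, 2 rose in WT with HDM. Scd1 rose by 1.92 ± 0.25 and Fasn by 1.36 ± 0.26, and all 11 were positive, with a median of 1.09. Among all genes tested 0.506% rose and 48.5% were positive. The smallest estimates in the list were 0.0050 ± 0.50 for Scap and 0.17 ± 0.41 for Srebf1. Under HDM 2 fell in the libraries labelled cKO (Scd1 with a log2 difference of -3.46 and Fasn with -2.16). In this comparison 10 of 11 were negative, and the median was -1.24. Among all genes tested 0.519% fell and 49.2% were negative. Scd1, a desaturase, held 599 and 670 normalized counts in WT PBS and rose to 2243 and 2569 in WT HDM. Its libraries labelled cKO held 293 and 481 with saline and 194 and 243 with HDM. With HDM in WT, Scd1 missed the threshold without WT HDM replicate 2 or WT PBS replicate 1, and Fasn without any 1 library outside cKO PBS, with no filter on low values and with a pseudocount of 0.2. Neither gene passed in either comparison without the mean-variance trend.

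Of 11 tested genes that assemble and remodel phosphatidylcholine, 0 passed in either of these comparisons with limma, where 1 and 2 had an unadjusted p under 0.05 (8.93% and 9.6% of all genes). Their medians were -0.05 with HDM in WT and 0.14 between genotypes under HDM. Those with the smallest p were Pla2g4a, a phospholipase (-1.80 ± 0.75 with HDM in WT and 1.97 ± 0.75 in cKO against WT under HDM), Pcyt1b (-1.43 ± 0.95 with HDM in WT) and Gpam (-1.22 ± 0.56 under HDM). Of 8 tested genes for the traffic of lysosome-related organelles, 0 passed with limma in either comparison and 0 had an unadjusted p under 0.05, with medians of 0.12 and -0.18. The smallest p there belonged to Ap3b1, an adaptor subunit (1.00 ± 0.48 in WT and -0.61 ± 0.48 under HDM), with Lamp1 (0.33 ± 0.25) in the first comparison and Lyst (-0.78 ± 0.75) in the second.

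In the list for secretion and control of the surfactant pool, 1 of 8 rose in WT with HDM, against 0.506% of all genes. Under HDM 1 fell in the libraries labelled cKO, against 0.519% of all genes, and in both cases it was Adgrf5. This adhesion receptor restrains the surfactant pool in type 2 cells and is also made by endothelium. It held 154 and 159 in WT PBS, 403 and 500 in WT HDM, 161 and 184 in cKO PBS, and 198 and 142 in cKO HDM. The rise in WT was not called without WT HDM replicate 2 or either WT PBS library, and the fall under HDM not without any 1 library outside cKO PBS. Both calls were lost with no filter on low values or without the trend. Of 11 other type 2 cell genes, 5 rose in WT with HDM (Chil1, Hc, Cxcl15, Lyz1 and Il33), against 0.506% of all genes. In cKO against WT under HDM 6 fell (Hc, Cxcl15, Lyz2, Chil1, Lgi3 and Dram1), against 0.519% of all genes. The medians were 1.74 and -1.96. Without any 1 library outside cKO PBS, Lyz1 and Il33 in WT and Dram1 under HDM missed the threshold. In WT, Cxcl15 also missed it without WT HDM replicate 2 or WT PBS replicate 1, and Hc without WT PBS replicate 1. Under HDM, Cxcl15, Lyz2, Chil1 and Lgi3 missed it without WT HDM replicate 2, all of these but Cxcl15 without either cKO HDM library, and Lgi3 also without WT PBS replicate 2. With no filter on low values Lyz1 and Il33 in WT and Lyz2, Chil1, Lgi3 and Dram1 under HDM were not called, with a pseudocount of 0.2 Lyz1, Il33 and Dram1 were not, and without the trend none of the 11 calls held.

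Transcription factors and receptors that maintain type 2 cells were a mixed list. None of 12 passed with HDM in WT with limma, and 1 had an unadjusted p under 0.05, against 8.93% of all genes. Etv5 (1.54 ± 0.57) and Erbb2 (-0.93 ± 0.58) had the smallest p. The median was -0.23. Under HDM 1 fell in the libraries labelled cKO, against 0.519% of all genes. That gene was Etv5, an ETS factor needed to keep type 2 identity. Etv5 held 24.5 and 52.7 normalized counts in WT PBS, 128 and 89.0 in WT HDM, 19.5 and 19.0 in cKO PBS, and 7.98 and 15.8 in cKO HDM, a log2 difference of -3.13 ± 0.57 under HDM (limma adjusted p = 0.0176). Etv5 missed the threshold without any 1 of the 4 HDM libraries, with no filter on low values, and without the trend. Nkx2-1, a factor that binds surfactant promoters and is named here after its values were seen, was at 98.7 and 106 in WT PBS, 108 and 102 in WT HDM, 143 and 133 in cKO PBS, and 73.3 and 110 in cKO HDM. Its intervals were -0.64 to 0.71 with HDM in WT and -0.90 to 0.45 in cKO against WT under HDM.

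**Figure D4:**
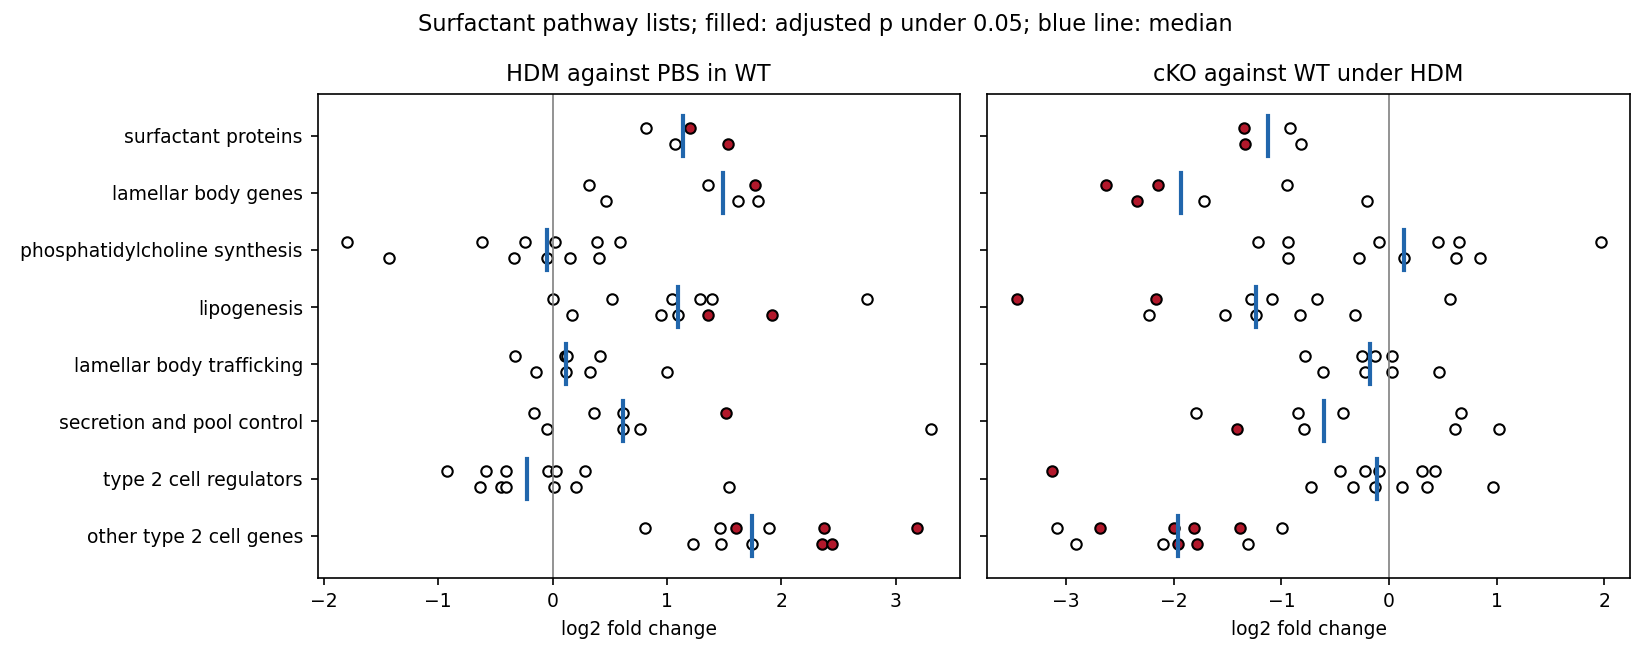
Log2 fold changes (horizontal axes) of the tested genes of 8 lists in 2 comparisons; each circle is a gene, filled where the adjusted p was under 0.05, and the blue line is the list's median. Surfactant proteins, lamellar body genes, lipogenic genes and other type 2 cell genes lie to the right in the first panel and to the left in the second, and the phosphatidylcholine, trafficking and regulator lists are centred near 0.

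Markers of other cells were also highest in the WT HDM libraries. Of all reads in WT HDM, the 10 surfactant and lamellar body genes took 2.48% and 3.44%, and they took 1.18% to 1.57% in the other 6 libraries. The 8 endothelial markers took 0.244% and 0.247% in WT HDM and 0.0503% to 0.0886% in the other 6 libraries. The 6 mesenchymal markers took 0.303% and 0.301% in WT HDM against 0.00903% to 0.0288% elsewhere. The 10 macrophage and dendritic cell markers summed to 92.0 and 151 normalized counts in WT HDM and to 2.54 to 9.76 elsewhere, where 7 to 9 of the 10 were at 0 reads. The 4 leukocyte markers summed to 18.3 and 63.2 in WT HDM, and elsewhere came from 11 reads in WT PBS replicate 2 and from none in the other 5 libraries. The 4 haemoglobin genes summed to 226 and 418 in WT HDM and to at most 30.5 elsewhere. The part of these cells in the differences of the set was not tested.

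The ciliated, epithelial and club cell lists had another order. The 7 ciliated cell markers took 0.310% and 0.356% of reads in WT HDM and 0.499% to 0.629% in the other libraries, and the 5 epithelial markers 0.273% and 0.283% against 0.338% to 0.392%. The 6 club cell markers took 2.18% and 1.97% with saline and 1.33% and 1.64% with HDM in the WT libraries. In those labelled cKO they took 3.52% and 2.59% with saline and 1.502% and 1.96% with HDM. The 7 type 1 cell markers took 0.114% and 0.117% in WT HDM and 0.0688% to 0.107% elsewhere. Most of that difference came from Ager, with a mean of 71.6 normalized counts in WT PBS and 205 in WT HDM. Hopx (68.8 and 75.9), Clic5 (61.9 and 89.6) and Aqp5 (80.3 and 77.5) differed less. Pdpn, Rtkn2 and Akap5 were too low to test. Lamp3 held 450 and 498 in WT HDM, where the dendritic cell markers Ccr7 and Fscn1 stood at 8.48 and 5.16, and at 4.56 and 5.16. The part of dendritic cells in the Lamp3 values was not tested. Fscn1 was also at 5.81 and 4.98 in cKO HDM, Ccr7 was at 0 reads there, and Ccl22 was at 23.5 and 0 in WT HDM and at 0 reads elsewhere.

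**Figure D5:**
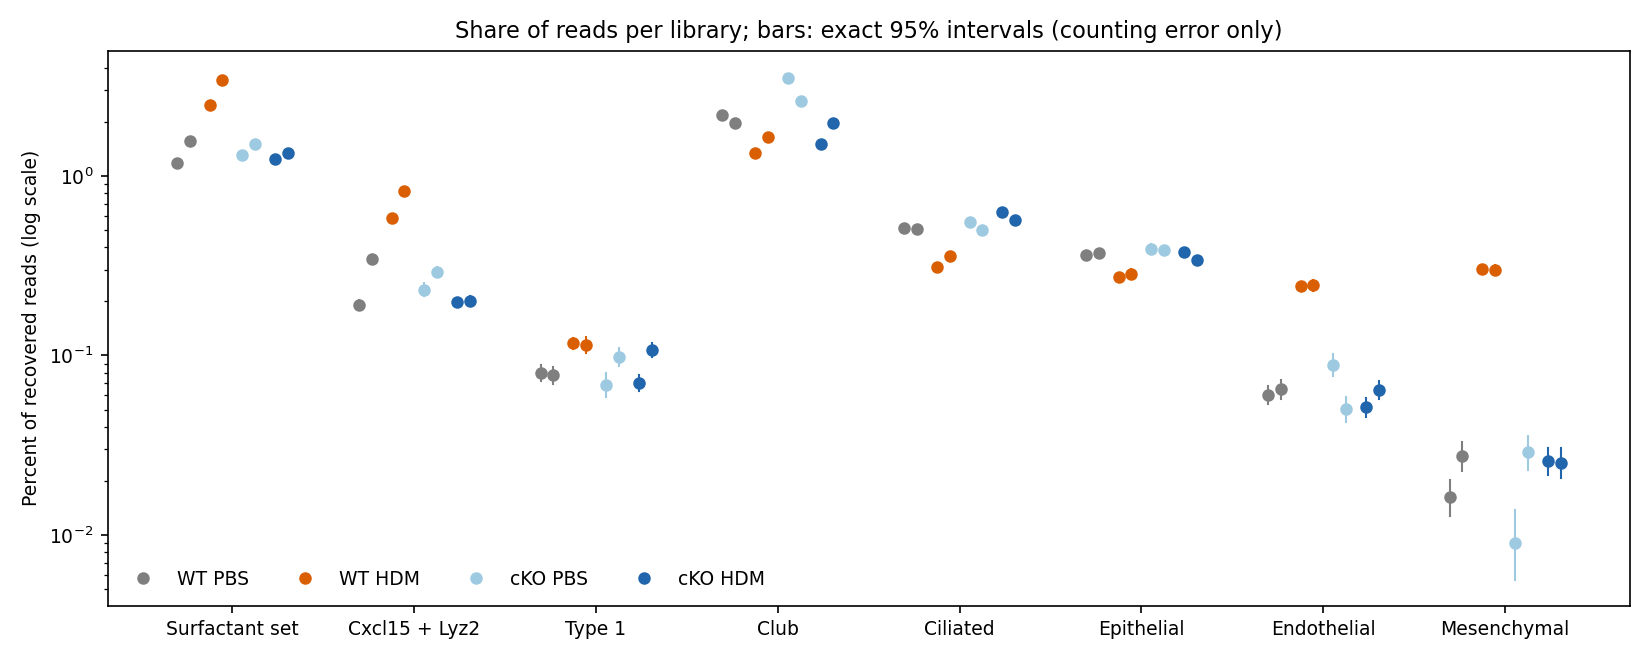
Share of recovered reads per library (vertical axis, log scale) for the 10 surfactant and lamellar body genes, for the other type 2 markers Cxcl15 and Lyz2, and for marker lists of 6 other kinds of cell or tissue; bars are exact 95% Clopper-Pearson intervals. The orange WT HDM points are the highest for the surfactant set (2.48% and 3.44%), the endothelial list (0.244% and 0.247%) and the mesenchymal list (0.303% and 0.301%), and the lowest for the ciliated list (0.310% and 0.356%).

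Some gene models overlap a neighbour, and without a statement on strand in counting their reads cannot be assigned with certainty. In the GENCODE M21 annotation of mm10, Slc34a2 overlaps an antisense gene over 1502 bases, Napsa one over 6895 bases, and Abca3 a processed transcript on the other strand over 5553 bases. The other 7 genes of the set overlap none.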

How the data were processed

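Per the labels' protocols, TRIzol RNA went into directional libraries. The deposited signal values are read counts per gene divided by a size factor per library; HOMER, DESeq2 and mm10 are named per the submitters' processing notes, without roles or versions. The aligner, annotation and strand setting: not given in the sources used here. Every value was a whole multiple of 1 read (100% within 0.01 reads), which recovered the reads. A count of 0 allows up to 3 reads, 1.96 to 4.88 normalized counts. Floors and the Clopper-Pearson intervals of read shares cover counting error only, while limma intervals rest on the spread between libraries.

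Values were tested as log2(value + 1) for 7512 genes with a mean of at least 10, in limma 3.58.1 (R 4.3.3) with 1 mean per group over all 8 libraries, a mean-variance trend and two-sided Benjamini-Hochberg adjusted p-values over all genes. Fold changes on this scale understate those of low genes. Errors after ± are limma standard errors. Alternatives were other pseudocounts, filters, scalings and variance models, a replicate block, leaving out each library, and edgeR 4.0.16 and DESeq2 1.42.0 on recovered reads. On simulated data for HDM against PBS in WT (7512 genes, 50 per size), limma called 8% of genes changed by a fold of 2. It called 48% at a fold of 4 and 92% at folds of 8 and of 16, and 4 of 7312 unchanged genes. The changed genes were drawn at random from all genes tested. These rates thus do not describe the 10 genes, which ranked 4 to 559 of all symbols by mean count. Gene positions and lengths are from GENCODE M21 (mm10).

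The 10 genes and the lists were chosen with earlier results of these data known. From each pathway list up to 6 genes that passed were named, or up to 2 with the smallest p where none passed, and the 8 genes most like the set by Pearson r.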

Additional observations from a re-analysis of the deposited data

Results flagged for a closer look

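A pair of genes from the pathway lists had a response to HDM that differed between genotypes by the interaction term. Scd1, the desaturase, differed by -2.71 (response in the libraries labelled cKO minus response in WT, log2; limma adjusted p = 0.00828). Hc, complement C5, which type 2 cells make, differed by -2.77 (limma adjusted p = 0.0386). Hc held 88.8 and 149 normalized counts in WT PBS, 701 and 565 in WT HDM, 133 and 112 in cKO PBS, and 106 and 88.9 in cKO HDM. Neither call was stable. Scd1 missed the threshold without either WT HDM library, either WT PBS library or cKO HDM replicate 1 (adjusted p from 0.0824 to 0.324), and Hc without any 1 library outside cKO PBS (0.0824 to 0.65). Both missed it with a pseudocount of 0.2 (0.0687 and 0.118), with no filter on low values (0.165 and 0.339) and without the trend (0.483 for both), and both estimates stayed below 0 throughout. No gene of the surfactant and lamellar body set passed this test with limma.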

How the results depend on the processing

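Directions of the set in HDM against PBS in WT, in cKO against WT under HDM and in the interaction held for all 10 genes in every alternative run, and the number that passed did not. With HDM in WT 3 genes passed. That became 7 with a pseudocount of 5 and with a minimum mean of 50, 1 with no filter, 5 with quantile normalization, 0 without a trend, 8 with only the groups compared and 8 with DESeq2. In cKO against WT under HDM 5 passed, and 2 with no filter, 8 with a minimum mean of 50, 0 without a trend and 9 with DESeq2. For the interaction 0 passed, and 1 with a pseudocount of 5, 2 with a minimum mean of 50 and 5 with DESeq2. Leaving out each library, with the lone library of a pair assumed to vary like the other groups, gave 0 to 5, 0 to 7 and 0 to 1. No gene of the set passed in the other comparisons under any alternative. The causes were not tested.

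Over all genes tested the counts were 39, 4, 43, 0 and 2 for HDM in WT, HDM in cKO, genotype under HDM, genotype under PBS and the interaction. They ranged from 1 to 190, 0 to 33, 0 to 205, 0 to 1 and 0 to 74 over the other settings, and from 3 to 110, 0 to 320, 3 to 117, 0 to 315 and 0 to 115 without single libraries.

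Over all genes tested, replicate differences had r from -0.016 to 0.018 between groups. Counting error in shallow libraries can hide a shared deviation, so this does not decide whether numbers pair the libraries. The mean centred log2 value of the set was higher in replicate 2 than in replicate 1 in each group. It was -0.39 and -0.0085 in WT PBS, 0.78 and 1.21 in WT HDM, -0.47 and -0.23 in cKO PBS, and -0.50 and -0.39 in cKO HDM. With the replicate block 5 genes of the set passed with HDM in WT and 7 in cKO against WT under HDM.

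Signs that changed belonged to genes that did not pass. For cKO against WT under PBS, quantile normalization gave Sftpa1 -0.10, Sftpc -0.055 and Abca3 -0.16, and edgeR gave Abca3 -0.0039. Without single libraries, HDM against PBS in cKO ranged from -0.24 to 0.86 for Lamp3, -0.26 to 0.48 for Slc34a2, -1.11 to 0.15 for Lpcat1 and -0.29 to 0.11 for Ctsh. In cKO against WT under PBS the ranges were -0.24 to 0.51 for Sftpc, -0.27 to 0.29 for Abca3, -0.89 to 0.0037 for Napsa and -0.019 to 0.44 for Ctsh.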

Other observations

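Csf2rb, the shared chain of the GM-CSF receptor through which alveolar macrophages are kept able to clear surfactant, was in the list for secretion and control of the pool and was too low to test. It held 5.87 and 41.3 normalized counts in WT HDM and 0 reads in the other 6 libraries, where 0 reads allow up to 2.18 to 4.88. The macrophage and dendritic cell markers were likewise highest in WT HDM, and the part of such cells in this value was not tested.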
